A study of Mus musculus with 6 samples.

Results

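The Gnas cluster is an imprinted stretch of mouse chromosome 2, and its members here are all cytosines that the deposited table lists on the mm9 build between 174100000 and 174180000. The window holds 131 cytosines of the 652716 in the table. Cytosines whose neighbours lie at most 100 bp apart were joined into runs, which gave 31 runs, numbered 1 to 31 from the low to the high coordinate. Of these, 17 hold at least 3 cytosines and 15 of the 17 also have at least 10 calls in each sample. Those 15 runs, with 101 cytosines, entered the tests. A call is 1 read at 1 cytosine, and the level of a run is its methylated calls as a percent of all its calls.

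Imprinted genes are expressed from only the copy inherited from the mother or only that from the father. The difference is kept by methylation that is copied at each cell division, and part of that methylation is set in the germ line. The Gnas cluster has several promoters that share downstream exons. Gnas codes for the alpha subunit of the stimulatory G protein, which links hormone receptors to the making of cyclic AMP. Nesp codes for a secretory protein and is transcribed from the maternal copy, with its promoter methylated on the paternal copy. Gnasxl codes for a long form of the G protein subunit, Nespas is a noncoding antisense transcript, and exon 1A starts a further noncoding transcript. These 3 are transcribed from the paternal copy, and their promoters are methylated on the maternal copy. The promoter of Gnas itself is known to be unmethylated on both copies in many tissues. The assay mixes reads of the copies, and no file used here assigns a read to a parent.

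DNA was read by reduced representation bisulfite sequencing, in which DNA is cut with restriction enzymes and treated with bisulfite, so that unmethylated cytosines are read as thymine. The 6 samples are bone marrow cells of C57BL/6J mice, all labelled male. The day 0 group (replicates 2 and 3) is marrow that was not cultured. The day 4 group (replicates 1 and 2, labelled common myeloid progenitors) and the day 7 group (replicates 1 and 4, labelled bone marrow derived dendritic cells) were grown with supernatant of an SP2/0 line that secretes Flt3L, a cytokine used to grow dendritic cells. All live cells were taken at both times, with no sort, so each group is a mixture of cell types. Methylation gives no direct reading of cell type markers here, and the labels were not checked against them. Whether the replicates of a group are different mice or cultures is not in the labels, so each p-value rests on sample spread that could be technical.

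The shallowest library was day 7 replicate 4, with a median of 4 reads per cytosine in the whole table against 9 to 14 in the other 5, and 4 against 8 to 14 in the window. Reads per X cytosine relative to autosomal cytosines were 0.650 to 0.688 in the day 0 and day 4 libraries and 1.01 and 1.07 in the day 7 libraries, although all carry the label male. What this does to the autosomal values was not tested. Neighbouring cytosines are read by the same reads, so the calls of a run are not independent. Intervals below are therefore 95% Wilson intervals at the depth of the deepest single cytosine of a run, and they cover counting error only. The level of the run was rounded to whole reads at that depth.

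RefSeq lists Gnasas1, a synonym of which is Nespas, and Gnas as neighbours on chromosome 2, and its promoter table for the GRCm38.p6 build holds 4 starts of Gnas. The table does not name them. By their order they are set here beside Nesp (the first), exon 1A (the second and the third, 19 bp apart) and Gnas (the fourth). Their sequences are shown from 250 bases before to 50 after each start because the cytosines of CG pairs are what the assay reads, and these starts differ widely in how many they hold. CG pairs are in capitals, the strand is plus, the third start is left out because it overlaps the second, and the positions are on GRCm38.p6 and not on mm9.
Nesp side, chr2:174284070-174284369: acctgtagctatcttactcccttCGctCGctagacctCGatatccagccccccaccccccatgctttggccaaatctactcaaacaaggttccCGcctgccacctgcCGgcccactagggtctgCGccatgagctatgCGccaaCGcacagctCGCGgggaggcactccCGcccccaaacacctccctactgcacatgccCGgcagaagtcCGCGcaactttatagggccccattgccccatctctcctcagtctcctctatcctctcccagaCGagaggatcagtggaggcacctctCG
Exon 1A side, chr2:174327499-174327798: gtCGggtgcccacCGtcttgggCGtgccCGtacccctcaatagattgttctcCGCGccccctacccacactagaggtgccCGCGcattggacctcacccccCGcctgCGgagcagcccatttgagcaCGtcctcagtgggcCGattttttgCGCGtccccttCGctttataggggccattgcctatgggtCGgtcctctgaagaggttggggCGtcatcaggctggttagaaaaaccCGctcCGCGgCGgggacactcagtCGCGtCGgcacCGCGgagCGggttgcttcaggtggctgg
Gnas side, chr2:174329756-174330055: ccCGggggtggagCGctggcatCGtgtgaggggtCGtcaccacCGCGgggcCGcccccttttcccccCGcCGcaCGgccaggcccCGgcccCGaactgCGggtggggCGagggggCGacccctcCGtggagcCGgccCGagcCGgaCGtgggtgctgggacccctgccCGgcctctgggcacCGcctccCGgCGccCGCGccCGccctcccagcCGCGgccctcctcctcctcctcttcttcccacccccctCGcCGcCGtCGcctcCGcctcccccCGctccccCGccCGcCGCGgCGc

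The Nesp side start holds 16 CG pairs in 300 bases, the exon 1A side starts 27 and 28, and the Gnas side start 40. The median over all 32851 promoters of the table is 7, and 33.0%, 15.5%, 14.2% and 3.91% of them hold at least as many as the first to the fourth start. The share of G and C was 61.0%, 64.3%, 64.3% and 81.7%. Cut sites of the enzymes differed too. The letters CCGG (MspI; the same on both strands) occur 2 times in the first start, 0 times in the second and the third and 6 times in the fourth, and TCGA (TaqI; the same on both strands) occurs 1 time in the first and 0 times in the others. Of all promoters, 52.8% hold CCGG and 22.0% hold TCGA. The longest stretch shared by the Nesp side and exon 1A side starts is CTTTATAGGG, which begins 32 bases before the Nesp side start and 86 and 105 bases before the exon 1A side starts. Of the 32851 promoters, 8, or 0.0244%, hold it on either strand. These starts are 3 of the 8 because the stretch was chosen from them. The second and the third overlap and hold the same copy of it.

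No gene positions on mm9 were used, so a run is tied to a promoter only by its place in this order. The spacing of CG pairs gave a single fit for the Nesp side sequence, which could be laid on the listed cytosines at 1 offset. That offset is at run 1, whose 3 cytosines lie 9 and 2 bp apart. The exon 1A side sequences could be laid at 3 offsets each and the Gnas side sequence at 7, so spacing did not place these. Whether a fit to 3 cytosines could arise by chance was not tested, so runs stay tied by order. Whether a run lies in an exon, an intron or upstream was not analysed here. Distances within each build can be set side by side. On GRCm38.p6 the exon 1A side starts lie 43.4 kb and the Gnas side start 45.7 kb from the Nesp side start. In the mm9 table, runs 20 to 23 lie 42.2 to 44.8 kb and runs 24 to 27 lie 45.4 to 46.6 kb from the first listed cytosine.

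The level differed in kind between stretches of the window, as the plot of single cytosines shows. From the first listed cytosine to run 18 nearly all levels were intermediate, apart from run 9. A pair of cytosines between the upstream and downstream promoters was highly methylated. Runs 20 to 23 were again intermediate, runs 24 to 27 were close to 0%, run 28 was between these, and the last 3 runs were above 80% on average. Runs at most 1000 bp apart were joined into 11 blocks to give this outline.

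**Figure D1:**
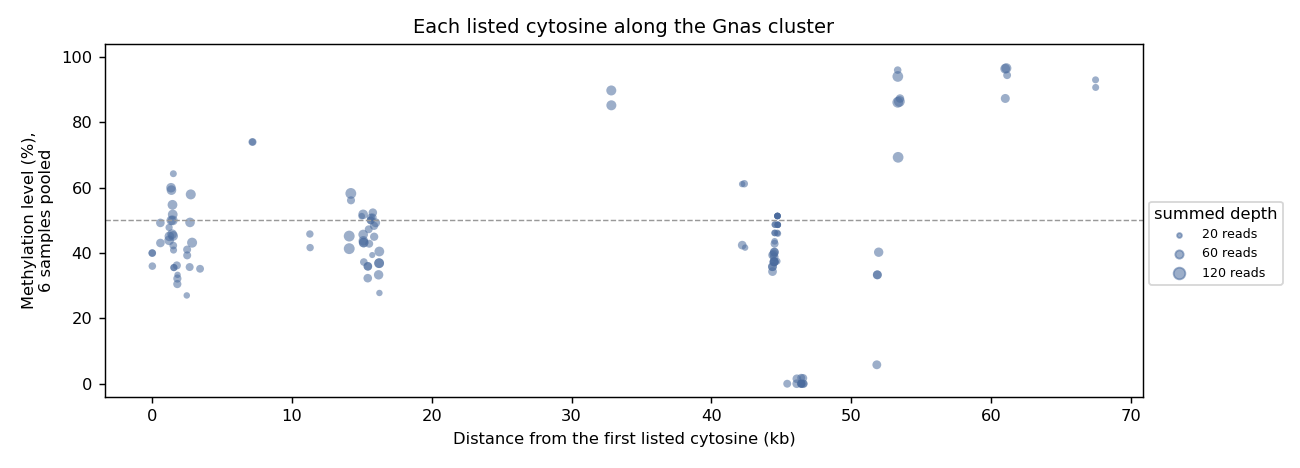
Methylation level of each of the 131 listed cytosines with the reads of the 6 samples pooled, against the distance in kb from the first listed cytosine; the area of a point grows with its summed depth and the dashed line marks 50%. Intermediate levels stand near 0 to 3, 14 to 16 and 42 to 45 kb, levels close to 0% near 46 kb and high levels near 33 kb and beyond 53 kb.

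The first block, set beside Nesp by order, runs from 174109715 to 174113140 and holds 33 cytosines in 8 runs. Its level was 45.7% and 43.1% at day 0, 49.6% and 47.4% at day 4, then 44.6% and 29.4% at day 7. The 3 groups stayed near one another except for day 7 replicate 4, which was the lowest. The mean over the 6 samples was 43.3% ± 7.17 (SD, n = 6).

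Within it, run 4 (174111062 to 174111269, 13 cytosines) was the best covered, with 55 to 198 calls per sample. It stood at 47.9% and 44.7% at day 0, 57.6% and 48.6% at day 4, then 54.7% and 34.5% at day 7. The pair at day 4 was higher than the pair at day 0, by 0.74 to 12.9 points over the 4 pairs of samples, and the day 7 samples lay on both sides of them. All 6 intervals held 50%, for example 27.9% to 64.9% in day 0 replicate 2. Its single cytosines ranged from 35.6% to 64.3% with the samples pooled.

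Run 5 (174111478 to 174111530, 4 cytosines) was lower and nearly the same in 5 samples, at 34.8% and 36.4% at day 0, 37.1% and 34.5% at day 4, then 34.1% in day 7 replicate 1, with 14.3% in day 7 replicate 4 on 21 calls. Run 7 (174112395 to 174112570, 4 cytosines) stood at 48.4% and 42.3%, 46.4% and 62.3%, and 42.4% and 33.3% on the 3 days. Its day 4 samples lay above its day 7 samples, and the day 0 samples overlapped the day 4 samples. The 5 other runs of the block had at most 65 calls in any sample and means over the 6 samples of 34.7% to 60.8%.

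A single pair of cytosines follows at 174116870 and 174116911 (run 9). It stood higher than its neighbours, at 75.0% in both day 0 samples, 65.4% and 79.2% at day 4, then 75.0% and 100% at day 7, the last on 2 calls.

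The next stretch, set beside Nespas and Gnasxl by order, comprises the pair of run 10 at 174120995 and 174121013 and the 8 runs of the fourth block, from 174123809 to 174125970 (30 cytosines). The fourth block stood at 43.2% and 47.9% at day 0, 41.9% and 51.3% at day 4, then 40.7% and 39.7% at day 7, with a mean of 44.1% ± 4.53 (SD, n = 6). Its spread over samples was the smallest of the blocks with intermediate levels, apart from the seventh, which mixes 2 kinds of run. Run 10 stood at 35.7% and 50%, 50% and 50%, and 50% and 33.3% on 4 to 28 calls.

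In this block run 16 (174125344 to 174125595, 8 cytosines) stood at 49.5% and 41.3% at day 0, 46.3% and 66.7% at day 4, then 48.4% and 34.9% at day 7. The 3 groups overlapped. Run 14 (174124805 to 174124856, 6 cytosines) kept to 40.7% to 60%, with day 4 at 41.6% and 45.6% below day 0 at 51.4% and 49.4%. Run 15 (174125136 to 174125240, 5 cytosines) ranged from 16.7% in day 7 replicate 4, on 12 calls, to 47.8% in day 4 replicate 2.

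Run 18 (174125913 to 174125970, 5 cytosines) had the lowest adjusted p of the cluster for day 7 against day 0. It stood at 45.0% and 39.1% at day 0, 46.3% and 29.3% at day 4, then 24.7% and 22.2% at day 7. Both day 7 samples lay below the other 4, on 89 and 27 calls, and the group mean fell by 18.6 points from day 0 (range over the 4 pairs of samples -22.7 to -14.4). The difference did not pass the test (adjusted p = 0.4165 in edgeR). Fisher's exact test on pooled reads, which ignores the spread between samples, gave an adjusted p of 0.03924, and the adjusted p ranged up to 1.0 over the alternatives. In day 7 replicate 1 the interval was 11.2% to 46.9% and did not hold 50%.

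Between these promoters and the downstream ones lies a pair of cytosines at 174142558 and 174142563 (run 19) that was methylated in every sample, at 81.6% and 88.2%, 93.8% and 93.3%, and 71.4% and 83.3% on the 3 days. It is 16.6 kb from the last cytosine of the fourth block and 9.36 kb from the next listed one.

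**Figure D2:**
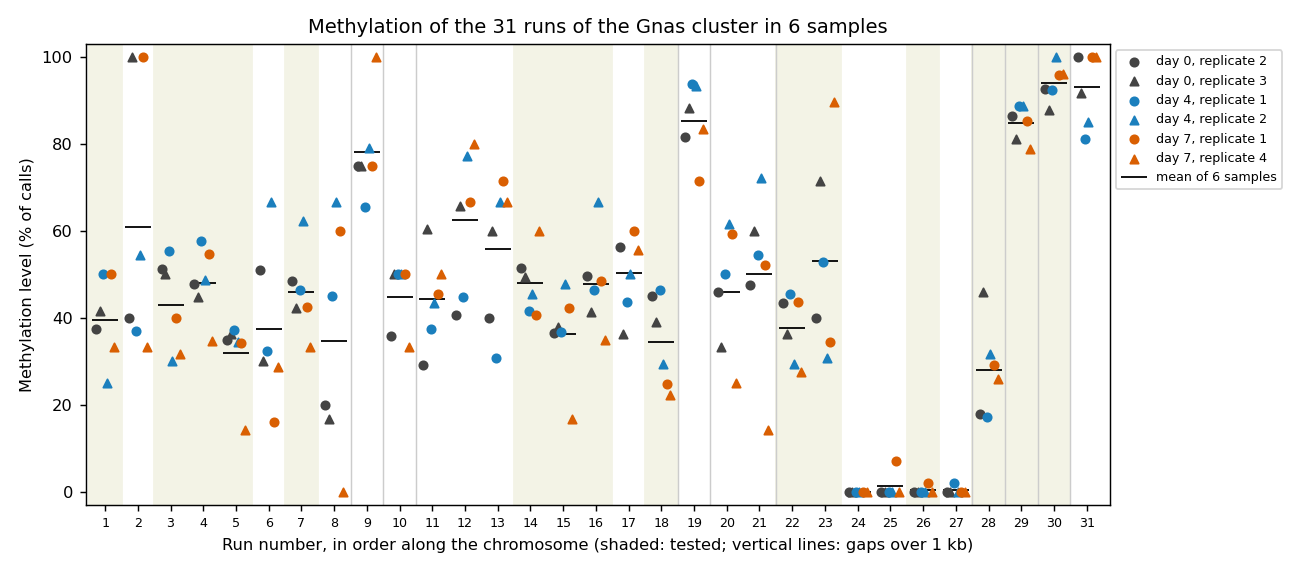
Methylation level (percent of calls) of each of the 31 runs in each of the 6 samples, in order along the chromosome; black bars are means of the 6 samples, shaded runs were tested and vertical lines mark gaps of over 1 kb. The intermediate runs scatter around 30% to 60%, runs 24 to 27 lie at 0% to 7.14% and runs 29 to 31 at 78.8% to 100%.

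Runs 20 to 23 are set beside exon 1A by order. The pairs of run 20 (174151918 and 174151924) and run 21 (174152072 and 174152131) form the sixth block, at 46.7% and 41.2% at day 0, 51.7% and 67.7% at day 4, then 56.0% and 20.0% at day 7. The day 4 samples lay above the day 0 samples, and day 7 lay on both sides. These pairs had 27 calls or fewer in each sample.

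Run 22 (174154084 to 174154272) holds 18 cytosines, the most of any run in the window. It stood at 43.4% and 36.2% at day 0, 45.4% and 29.3% at day 4, then 43.6% and 27.6% at day 7. In each group 1 replicate lay above 43% and the other at least 7.15 points below it, so the groups overlapped throughout. The group means were 39.8% ± 5.05, 37.4% ± 11.4 and 35.6% ± 11.3 (SD, n = 2 each).

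Run 23 (174154425 to 174154479, 13 cytosines in 55 bp) stood at 40% and 71.4% at day 0, 52.7% and 30.8% at day 4, then 34.5% and 89.7% at day 7. Its SD over the 6 samples, 23.2 points, was the largest of the tested runs. Replicates lay 31.4, 22.0 and 55.2 points apart on the 3 days, and the groups overlapped. The deepest of its cytosines was read 5 and 7 times at day 0, 7 and 3 times at day 4, then 14 and 4 times at day 7. In the last of these libraries the interval was 51.0% to 100%, since its level was rounded to 4 of 4 reads. Its cytosine read 4 times had 2 methylated reads, and 11 of the 13 had 2 of 2. That interval therefore does not show a level above 50%. It and that of run 18 in day 7 replicate 1 were the only ones of 66 intervals that did not hold 50%. The 66 are those of the 11 tested runs with a mean between 30% and 70%. With runs chosen by such a mean and read this shallowly, this count does not show a level of 50%. In run 5, 14.3% in day 7 replicate 4 had an interval of 3.01% to 56.4%. Of those 66 levels, 52 lay below 50% and 11 above.

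The cytosines of runs 22 and 23 tended to give the same count. In day 0 replicate 3 all 13 cytosines of run 23 had 5 methylated reads of 7. In day 4 replicate 2, 12 of the 13 had 1 of 3, in day 0 replicate 2, 11 had 2 of 5, and in day 4 replicate 1, 10 had 4 of 7. Run 22 showed it as well, with 6 of 13 reads methylated at 10 of its 18 cytosines in day 0 replicate 2 and 7 of 16 at 11 of them in day 4 replicate 1. In runs 4 and 16 a smaller part of the cytosines shared a count in most samples. In run 4 the commonest count was shared by 2 or 3 of the 13 cytosines in 5 samples and by 6 in day 7 replicate 4, and in run 16 by 1 to 3 of the 8. Cytosines of unlike depth cannot share such a count, so depth limits this comparison. In day 0 replicate 2 the depth ran from 6 to 16 reads in run 16, while every cytosine of run 23 was read 5 times. Reads methylated at every cytosine beside reads methylated at none would give equal counts, but the table holds no single reads, so this was not tested.

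This was measured over neighbouring cytosines at most 50 bp apart with the same depth of at least 5 reads, leaving out pairs with all or no reads methylated. In the 11 tested runs with a mean between 30% and 70%, 144 of 245 such pairs, or 58.8%, had the same methylated count. The share was 66.1% of 121 pairs in runs 22 and 23 together (64.9% and 68.1%) and 51.6% of 124 pairs in the 9 others. Those 9 ranged from 36.6% of 41 pairs in run 4 to 90.0% of 10 in run 1 and 100% of 1 in run 7. Equal counts were thus not particular to runs 22 and 23. Over the 4920 other autosomal regions with a mean between 30% and 70% the share was 17.7% of 39854 pairs, and 20.3% when weighted to the depths of the pairs in the window. The distance between the cytosines of a pair, beyond the limit of 50 bp, and their level were not matched. Pairs of 1 region and sample share their reads, so this is a description with no test.

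A sharp step follows run 23. Its last cytosine is at 174154479 and the next listed one is at 174155144, 665 bp further. There 0 of 10 and 0 of 9 reads were methylated at day 0, 0 of 14 and 0 of 8 at day 4, then 0 of 11 and 0 of 3 at day 7. The 11 cytosines of runs 24 to 27, up to 174156318 and set beside Gnas by order, had 0 methylated calls of 132 and 148 at day 0, 1 of 164 and 0 of 49 at day 4, then 2 of 107 and 0 of 37 at day 7. The deepest cytosine was read 5 to 18 times. At that depth a count of 0 was taken to allow up to 3 reads. This allows a level of up to 16.7% in the deepest of these libraries without a methylated call. In the shallowest it allows 60%, where depth sets the limit. These limits are for the deepest cytosine alone and do not pool the runs of the stretch. On the near side of the step, the 31 cytosines of runs 22 and 23 together stood at 29.8% to 47.4%, with a mean of 41.3% ± 6.38 (SD, n = 6).

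**Figure D3:**
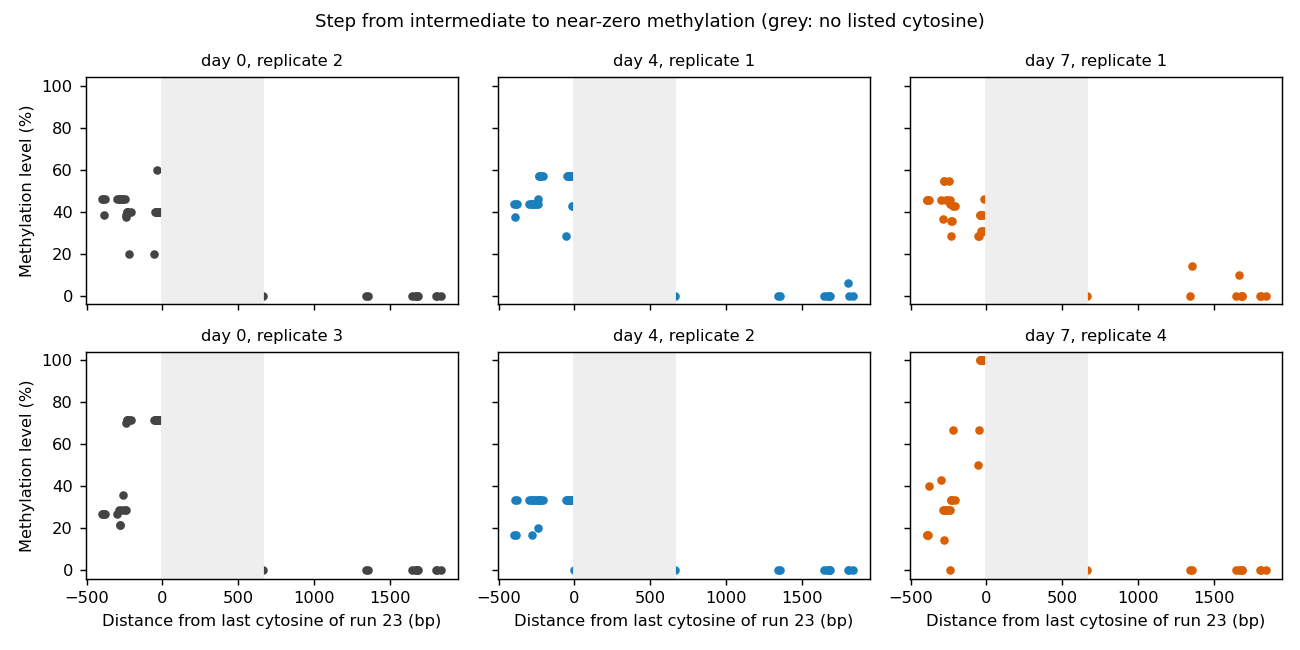
Methylation level of each listed cytosine of runs 22 to 27 in each of the 6 samples, against the distance in bp from the last cytosine of run 23; the grey band is the 665 bp with no listed cytosine. Left of the band the median over the 31 cytosines lies between 33.3% and 71.4% in each sample, with 11 cytosines of day 7 replicate 4 at 100% and 1 each of day 4 replicate 2 and day 7 replicate 4 at 0%; right of it 3 of 66 values are above 0% and the highest is 14.3%.

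Downstream of this stretch, run 28 (174161553 to 174161686, 4 cytosines) stood at 17.8% and 45.9% at day 0, 17.2% and 31.6% at day 4, then 29.1% and 25.9% at day 7. The groups overlapped, and day 0 replicate 3 was the highest. Its cytosines were not alike. The first, at 174161553, had 0 of 12 and 2 of 14 methylated reads at day 0, 1 of 15 and 0 of 9 at day 4, then 0 of 12 and 1 of 7 at day 7, or 5.8% pooled. The cytosine 34 bp further, at 174161587, had 2 of 12 and 9 of 14, 3 of 15 and 5 of 9, and 2 of 12 and 2 of 7. It was above the first in all 6 samples. This pair was singled out after its values were seen.

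The remaining runs were highly methylated as runs. Run 29 (174163045 to 174163211, 6 cytosines) stood at 86.5% and 81.1%, 88.8% and 88.8%, and 85.3% and 78.8% on the 3 days, with both day 4 samples above the other 4. Its lowest cytosine with the samples pooled, at 174163076, stood at 69.3%, and at 33.3% in day 7 replicate 4 (2 of 6 reads). Run 30 (174170738 to 174170875, 4 cytosines) stood at 92.6% and 87.8%, 92.3% and 100%, and 95.8% and 96.2%. Both day 7 samples were above both day 0 samples. Run 31, a pair at 174177201 and 174177209, ranged from 81.2% to 100% on 4 to 20 calls.

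No run of the cluster passed the test in any of the 3 comparisons. A run was called in edgeR at an adjusted p below 0.05, adjusted over all 56105 regions of the table, with a difference of group means of at least 20 percentage points. Day 4 against day 0 called 0 of the 15 runs, where 0.00178% of all regions and 0.00181% of the autosomal regions fitted alone were called. Differences ran from -14.0 to 11.1 points with a median of 0 (0.44 over all regions), 7 runs were higher and 7 lower, and the smallest adjusted p was 0.8414. Limma, the quasi-likelihood test of edgeR and Fisher's exact test also called 0, and in the likelihood ratio test of edgeR 0 runs had an unadjusted p below 0.05.

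Day 7 against day 4 called 0 of 15, where 0.451% of all regions were called, 197 of the 253 on X. Fitted alone, the autosomal regions gave 0.0181%. Differences ran from -16.5 to 20.3 points with a median of -6.72 (0.96 over all regions), 5 runs were higher and 10 lower, and the smallest adjusted p in edgeR was 0.6164. The largest, at run 23, was 20.3 points but ranged from -18.2 to 58.9 over the 4 pairs of samples (adjusted p = 0.7241). Without day 7 replicate 1 it was 47.9 points and was called (adjusted p = 0.04848 in edgeR). That fit has 1 library at day 7, read at most 4 times per cytosine here and assumed to vary like the other groups. In that library 11 of the 13 cytosines of run 23 had only 2 reads, both methylated. Without day 7 replicate 4 it was -7.26 points. Day 7 against day 0 called 0 of 15, where 0.497% of all regions were called, 206 of the 279 on X, and 0.0417% of the autosomal regions fitted alone. Differences ran from -18.6 to 6.36 points with a median of -3.76 (1.53 over all regions), and 4 runs were higher and 11 lower. In both comparisons limma, the quasi-likelihood test and Fisher's exact test called 0, and in the likelihood ratio test of edgeR 0 runs had an unadjusted p below 0.05. These comparisons share samples, so their directions are not independent.

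Day 7 replicate 4 had the lowest level of the 6 samples in 8 of the 15 runs, against 0 to 3 in each other library. Its part in the lower day 7 levels was not tested. No cytosine of the window had at least 10 reads in each sample, so none was tested at that minimum, and the 56 with at least 5 gave 0 calls. Over the blocks, exact two-sided permutation tests gave p from 0.333 to 1.0, and 0.333 is the lowest value possible for 2 samples against 2. With these depths a missing call does not show that levels were equal. For run 22, which had the most calls per sample of the tested runs (92 to 240), differences between single samples of day 7 and day 0 ran from -15.8 to 7.34 points.

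**Figure D4:**
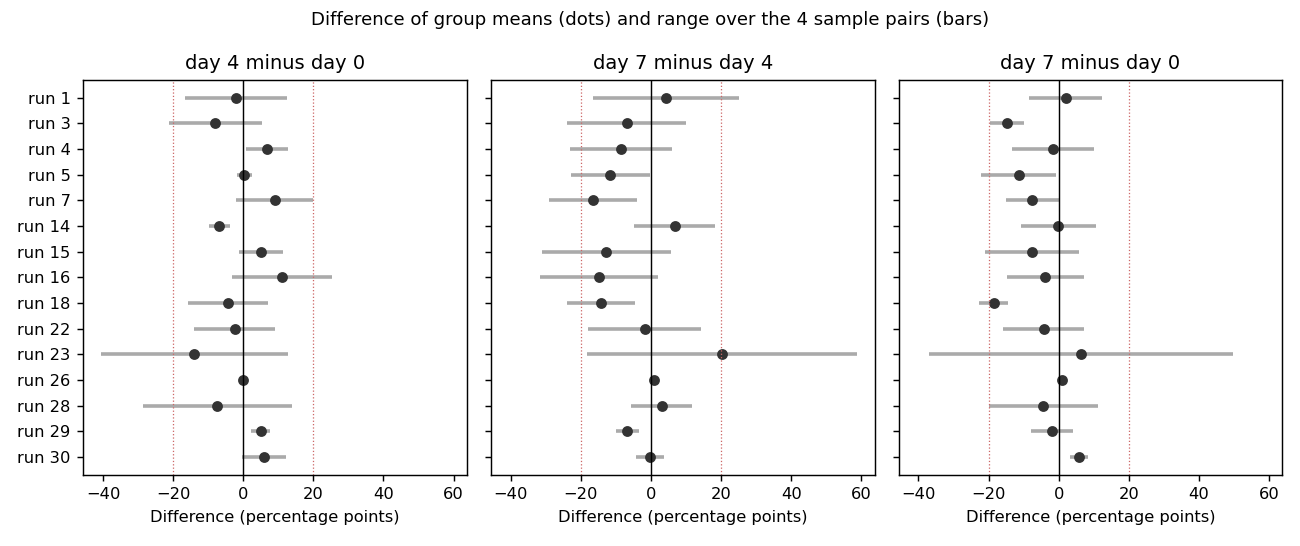
Difference of group mean levels in percentage points for each of the 15 tested runs (dots) with the range over the 4 pairs of samples (bars), for the 3 comparisons; dotted lines mark 20 points. Most bars cross 0, and that of run 23 is the widest in each panel.

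Intermediate levels of this kind were uncommon elsewhere. Of the 15 tested runs, 11 (73.3%) had a mean over the 6 samples between 30% and 70%, against 4920 of 55858 other autosomal regions (8.81%). Between 30% and 70% in every sample lay 5 runs (33.3%), which are runs 3, 4, 7, 14 and 16, against 2.36% of the others. Below 10% in every sample lay 1 run (6.7%) against 35.5%, and above 80% in every sample 1 run (6.7%) against 12.7%. Runs of 1 locus are not independent, so no test was made of these shares. Replicates of the 11 intermediate runs lay a median of 4.17 points apart at day 0, 16.1 at day 4 and 16.7 at day 7, against 8.51, 8.79 and 11.8 in the 4920 other regions.

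**Figure D5:**
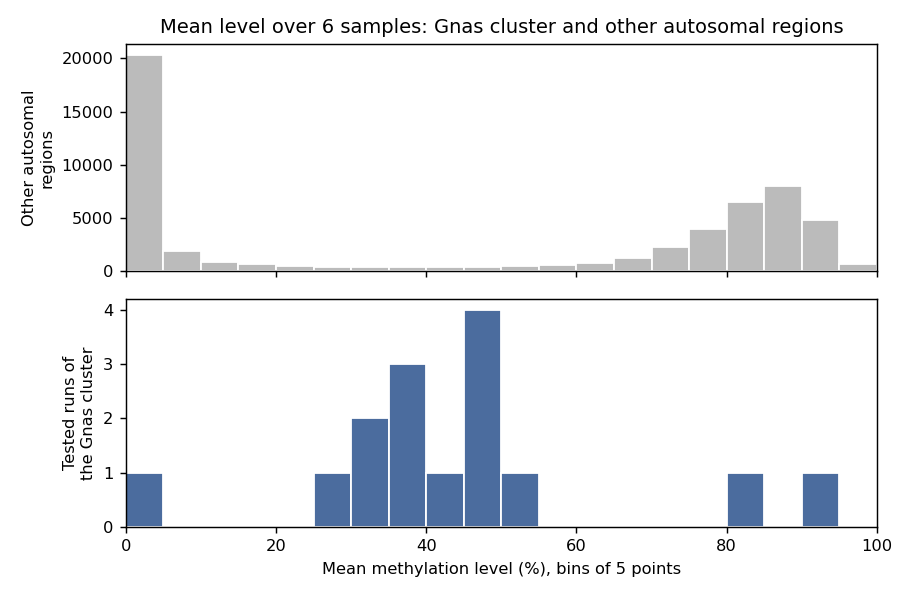
Mean methylation level over the 6 samples in bins of 5 percentage points, for the 55858 other autosomal regions (upper) and the 15 tested runs of the Gnas cluster (lower), with the number of regions on the vertical axes. Most other regions lie near 0% or above 70%, while 11 of the 15 runs lie between 30% and 70%.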

How the data were processed

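The deposited table gives, for each cytosine and sample, the methylated fraction and the counts of unmethylated and methylated reads, per the file headers. The deposited fraction equalled methylated over all reads, to within rounding. Bismark, Bowtie2 and mm9 are named in the submitters' processing notes; their versions, and how duplicates, trimming and strands were handled, are not stated in these sources. The smallest sum of reads over a group was 10. Samples were grouped by their titles. Regions were runs of at least 3 cytosines with gaps of at most 100 bp and at least 10 calls in each sample. Counts were fitted in edgeR 4.0.16 (R 4.3.3) with sample terms plus group terms for methylation, untrended dispersion and likelihood ratio tests, with Benjamini-Hochberg adjustment over all regions. Between replicates, chi-square per degree of freedom over the summed calls of regions was 1.73 to 1.89. Calls of a region share reads, which can raise this value, so it cannot show that replicates are distinct. All were kept as separate samples. The test was also run on simulated counts with planted changes. The simulation did not model reads shared between cytosines, so it does not check the test on such calls. Runs with at least 3 cytosines and at least 20 calls in each sample are given in full. The members and lists were chosen with earlier results of these data known. Alternatives were limma 3.58.1 (pseudocount 0.5 or 1), the quasi-likelihood test, Fisher's exact test, other minimums and gaps, autosomes alone, only the groups compared, each sample left out, and, added after seeing the data, mean reads per cytosine of a run.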

Additional observations from a re-analysis of the deposited data

How the results depend on the processing

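Over 19 settings of the region test, 823 of 824 values for single runs and comparisons stayed uncalled. The exception was run 23 for day 7 against day 4, which without day 7 replicate 1 differed by 47.9 points (adjusted p = 0.04848 in edgeR, with the 1 day 7 library left assumed to vary like the other groups); the number of runs called there was 0 to 1 over the fits that left out 1 sample. The sign of an uncalled difference changed in 50 of the 824 values. Single cytosines at 5 or more reads per sample also gave 0 calls; at 10 or 20 none was left to test or to give a level. The number of runs between 30% and 70% in every sample fell from 5 to 3 of 10 when at least 20 calls were required and to 1 of 7 with gaps of up to 1000 bp, which joins unlike runs. The level of the seventh block was 29.5% and became 41.3% when gaps of over 500 bp split it, since the unmethylated runs 24 to 27 then left it. Gaps of up to 2000 bp joined the eighth and ninth blocks, at 27.9% and 84.9%, into 1 at 64.2%. They also joined the sixth block, at 47.2%, with the seventh, at 29.5% and 1.95 kb further, which holds the unmethylated runs 24 to 27. The first block split into 5 pieces at 34.7% to 60.8% and the fourth into 2 at 52.3% and 42.4%. Taken at the piece that holds a block's middle cytosine, other block levels moved by less than their SD over samples. With mean reads per cytosine in place of summed calls, the whole table gave 0 calls between day 4 and day 0 and 1 between day 7 and either earlier group, over 41580 regions, where summed calls gave 1, 253 (from day 4) and 279 (from day 0) over 56105, and 1, 10 and 23 over the 55146 autosomal regions fitted alone. No paired analysis was possible because no compared groups share more than 1 replicate number. Depth limits the values most in day 7 replicate 4.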
